A study of Homo sapiens with 12 samples.

Results

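The SLC25 carriers are a family of transport proteins, most of which sit in the inner membrane of mitochondria. They were taken here as every protein-coding gene of the deposited table whose symbol is SLC25A followed by a number, which gave 48 of 58735 genes. RNA was sequenced from enterocytes, the absorptive cells of the gut lining, that had been made from RPChiPS771, a human iPS cell line. All cultures were kept in the maturation medium named M3 from day 15 to day 23. The Control group received neither compound, the VD3 group 1 µM vitamin D3, the VPA group 100 µM valproic acid (an inhibitor of histone deacetylases), and the VD3VPA group 100 µM VPA with 1 µM VD3. Each of the 4 groups had 3 libraries, and the study asked how VPA and VD3 act on the differentiation of these cells. All 12 libraries came from a single cell line, and the labels do not say that the libraries of a group were separate cultures, so p-values here reflect variation among these libraries only, which may be technical.

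The inner membrane keeps the proton gradient that drives ATP synthesis and lets few solutes pass. Carriers of the SLC25 family exchange nucleotides, phosphate, carboxylates, amino acids, carnitine esters and cofactors across it, and so join the pathways of the cytosol to those of the matrix. In the gut lining they serve fuel oxidation, citrulline and glutamate metabolism and the supply of citrate for lipid synthesis. The label does not hold for every gene with such a symbol: SLC25A17 is known as a carrier of peroxisomes, and SLC25A46 sits in the outer membrane. The rule also leaves out relatives with other names. Among these, UCP1, UCP2 and UCP3 were below 1 FPKM on average in every group, whereas MTCH1 had 62.6 ± 2.62 FPKM and MTCH2 35.6 ± 2.13 FPKM in Control (mean ± SD, n = 3).

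Levels are given in FPKM, that is, fragment numbers set relative to gene length and to a library size. The library sizes behind the deposited values were proportional to median-of-ratios size factors of the libraries, not to their fragment totals. Such a factor is the typical ratio of a library's genes to their mean over libraries. Gene length counts all annotated exons, so the order of different genes, and sums over genes, depend on that choice. In Control SLC25A3 had 80172 fragments over 8896 bases, and SLC25A5 had 45505 over 1500 bases. Changes are log2 fold changes of FPKM + 1 with their standard error (SE), a scale that understates the change of weakly expressed genes. Libraries held 32160289 to 43998467 fragments assigned to genes. A total of 34 carriers reached 1 FPKM in at least 3 libraries and were tested with limma among 12578 genes of all kinds, with p-values adjusted by the Benjamini-Hochberg method over all of these, and called where the adjusted p was under 0.05. Of the 34, SLC25A18, SLC25A37 and SLC25A45 passed that filter only through VD3 or VD3VPA libraries, so their being higher there is partly a condition of being tested. The other 14 were too low to test.

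The identity of the cells bears on every level below. The 14 enterocyte markers examined summed to 2264 to 2478 FPKM in Control, 5692 to 7852 in VD3, 5588 to 6291 in VPA and 6975 to 8185 in VD3VPA. Most of that difference was APOA4 (719.5 FPKM in Control, 4538 in VD3), and with VD3 7 of the 14 rose and 3, among them VIL1 (−0.27), fell. The 10 hepatocyte markers, among them AFP and ALB, summed to between 33325 and 43668 FPKM in all 12 libraries, with CYP2E1 under 0.1 FPKM in every group. Most of that sum was AFP (26950 FPKM in Control), and single markers changed in both directions. Of the 8 tested, 3 rose and 2 fell with VD3, such as FGB (2.42) and CPS1 (−1.25). With VPA 3 rose and 4 fell, such as SERPINA1 (0.73) and ALB (−1.61). The 8 mesenchymal markers summed to 60.9 to 68.1 FPKM in Control and 132 to 200 FPKM in the treated groups, mostly through SPARC (48.1 FPKM in Control, 150 in VD3), and 2 of the 5 tested rose with VD3. The 7 goblet and Paneth markers summed to 42.6 to 46.4 FPKM in Control, 15.7 to 18.2 in VD3, 21.4 to 29.3 in VPA and 10.03 to 11.2 in VD3VPA, nearly all of it TFF3, the only one tested, while FCGBP and DEFA5 had higher means in VD3VPA than in Control. Their part in the results was not tested, and in bulk RNA fewer cells of a type and less RNA per cell cannot be told apart.

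The ADP/ATP carriers, the most abundant set of close relatives, moved in opposite directions, and the promoter windows of the 3 tested ones are shown for that reason. The window of SLC25A43 is shown as well. SLC25A43 is the carrier nearest to SLC25A5 on chromosome X, with RNY3P16 between them, and was called in the same directions against Control. Each line gives the 250 bases before the RefSeq start on the gene's own strand (GRCh38.p14). Capitals mark matches, on either strand, to CCAAT or TATAAA. The windows are chr4:185143016-185143265 (plus strand) for SLC25A4, chrX:119468194-119468443 (plus strand) for SLC25A5, chrX:1392114-1392363 (minus strand) for SLC25A6 and chrX:119399086-119399335 (plus strand) for SLC25A43.
SLC25A4: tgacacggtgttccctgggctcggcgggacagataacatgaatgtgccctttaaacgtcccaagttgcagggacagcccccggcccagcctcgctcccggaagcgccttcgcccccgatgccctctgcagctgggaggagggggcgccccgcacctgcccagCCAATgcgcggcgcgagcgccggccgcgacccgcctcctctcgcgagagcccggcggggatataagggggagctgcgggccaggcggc
SLC25A5: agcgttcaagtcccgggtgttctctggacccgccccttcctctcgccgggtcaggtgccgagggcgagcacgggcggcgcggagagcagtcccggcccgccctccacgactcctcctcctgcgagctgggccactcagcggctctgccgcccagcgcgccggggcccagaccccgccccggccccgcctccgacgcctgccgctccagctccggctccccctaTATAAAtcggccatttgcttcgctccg
SLC25A6: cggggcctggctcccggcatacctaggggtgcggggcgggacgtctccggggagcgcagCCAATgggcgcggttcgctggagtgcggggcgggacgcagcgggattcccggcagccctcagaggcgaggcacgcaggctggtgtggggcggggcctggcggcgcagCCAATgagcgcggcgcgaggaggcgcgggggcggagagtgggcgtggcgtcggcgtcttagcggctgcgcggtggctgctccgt
SLC25A43: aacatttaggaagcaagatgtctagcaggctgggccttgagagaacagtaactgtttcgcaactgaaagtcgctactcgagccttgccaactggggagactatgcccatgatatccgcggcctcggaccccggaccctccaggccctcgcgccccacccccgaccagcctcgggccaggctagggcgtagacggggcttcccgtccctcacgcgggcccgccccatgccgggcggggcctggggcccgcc

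Windows of this kind were found for 40 of the 48 carriers, 50 windows in all, since some genes have more than 1 start. The letters CCAAT occurred in 42% of these 50 windows and in 32% of all 35116 promoter windows. TATAAA occurred in 8% against 10.7%, CACGTG in 16% against 6.34%, GCGCANGCGC in 8% against 5.07% and TGACGTCA in 6% against 1.65%. The patterns GNTCANNNNGNTCA and GGNCANNGGNCA, which describe spaced repeats bound by nuclear receptors, were found in none of the 50 windows and in 0.49% and 1.91% of all windows. Both strands were searched, and matches to different patterns were counted separately where they overlap. The median GC content was 65.4% in the carriers' windows and 58% in all windows. The SLC25A4 and SLC25A6 windows hold CCAAT and the SLC25A5 window holds TATAAA, so neither pattern is shared by all 3 sister genes. The SLC25A43 window holds neither.

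In Control the levels ran from the most abundant transcripts of the family down to almost none. SLC25A6 was highest at 405 ± 49.4 FPKM (mean ± SD, n = 3), followed by SLC25A5 at 247 ± 18.0 and SLC25A1, the citrate carrier, at 193 ± 11.9. Next came SLC25A3, the phosphate carrier, at 73.2 ± 3.16 FPKM, the glutathione carrier SLC25A39 at 51.1 ± 3.41 and the carnitine/acylcarnitine carrier SLC25A20 at 37.5 ± 1.75. The libraries of each of these 6 genes lay clear of those of the next. Below them neighbours mostly overlapped: SLC25A11 at 20.7 ± 1.69 FPKM and SLC25A13 at 19.7 ± 0.351 did, as did SLC25A44 at 15.0 ± 0.523 and SLC25A4 at 14.01 ± 0.591. Over the whole order 17 of 47 neighbouring pairs did not overlap. A total of 12 carriers had at least 10 FPKM on average in Control, 19 had 1 to 10 FPKM and 17 had less.

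**Figure D1:**
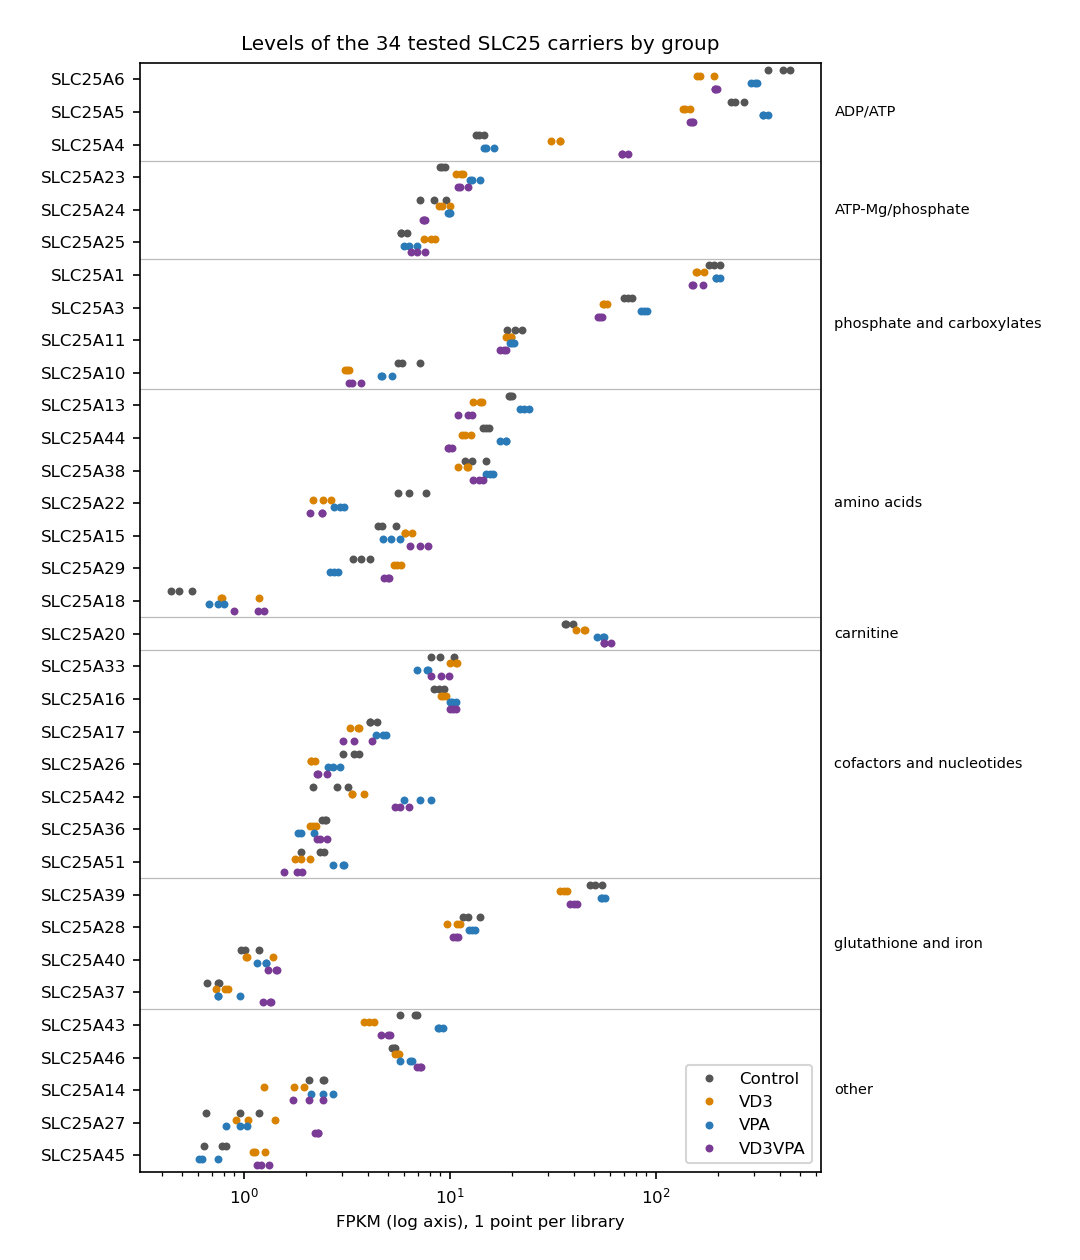
Level in FPKM (log axis) of the 34 tested carriers in each library, 1 point per library and coloured by group, with genes grouped by role. SLC25A4 separates the groups most widely, from 13.5 to 14.6 FPKM in Control to 68.4 to 73.2 in VD3VPA. SLC25A6 has the highest mean of the family in Control, VD3 and VD3VPA. In VPA the highest mean is that of SLC25A5 (338 FPKM, against 301 for SLC25A6).

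The summed level of the family was lower with VD3, a sum that rests mostly on a few genes. SLC25A6, SLC25A5, SLC25A1, SLC25A3, SLC25A39 and SLC25A20 made up 83.8% of it in Control. The summed level of the 48 genes was 1202 ± 91.3 FPKM in Control, 809 ± 26.2 in VD3, 1248 ± 28.7 in VPA and 891 ± 26.1 in VD3VPA. The 4 ADP/ATP carriers alone made up 666 ± 66.6 FPKM of it in Control, 345 ± 17.9 in VD3, 655 ± 17.3 in VPA and 415 ± 7.11 in VD3VPA. The rest of the family summed to 535 ± 25.8 FPKM in Control, 464 ± 10.5 in VD3, 593 ± 11.4 in VPA and 477 ± 19.0 in VD3VPA. Both sums were lower in every library of VD3 and VD3VPA than in any library of Control.

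With VD3 alone, 9 carriers rose and 14 fell, and 11 were not past the threshold. Across all genes tested, 31.3% were called higher and 31.2% lower, against 26.5% and 41.2% of the 34 carriers. The carriers' median change was −0.11 on the log2 scale, against 0.000366 for all genes. The widest falls were those of SLC25A6, SLC25A22 and SLC25A5, and the widest rise was that of SLC25A4. Of these 23 calls, 19 held in every alternative fit that tested the gene; a filter of 5 FPKM tested 24 carriers only. Without Control replicate 1 the carriers' median was −0.05.

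With VPA alone, 13 carriers rose and 7 fell, and 14 were not past. Across all genes 29.6% were higher and 23.1% lower, against 38.2% and 20.6% of the carriers, whose median change was 0.12 against 0.01 for all genes. This balance depended on the scaling between libraries. With libraries scaled to equal sums of FPKM, or to their own fragment totals, 8 carriers rose and 8 fell, and the share of higher calls among all called genes went from 56.2% to 44.0% and 36.5%. SLC25A42, SLC25A20 and SLC25A23 rose most and SLC25A22 fell most. Of the 20 calls, 14 held in every alternative fit that tested them.

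With both compounds, 14 carriers were higher than in Control and 15 lower, so 5 of 34 were not past. Across all genes 31.1% were higher and 33.1% lower, against 41.2% and 44.1% of the carriers, and the medians were −0.07 and −0.01. Without VD3VPA replicate 2 the carriers' median was −0.02. Of the 29 calls, 23 held in every alternative fit that tested them. A stricter filter of 5 FPKM kept 24 carriers, of which 9 were higher. The 3 comparisons share the Control libraries.

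**Figure D2:**
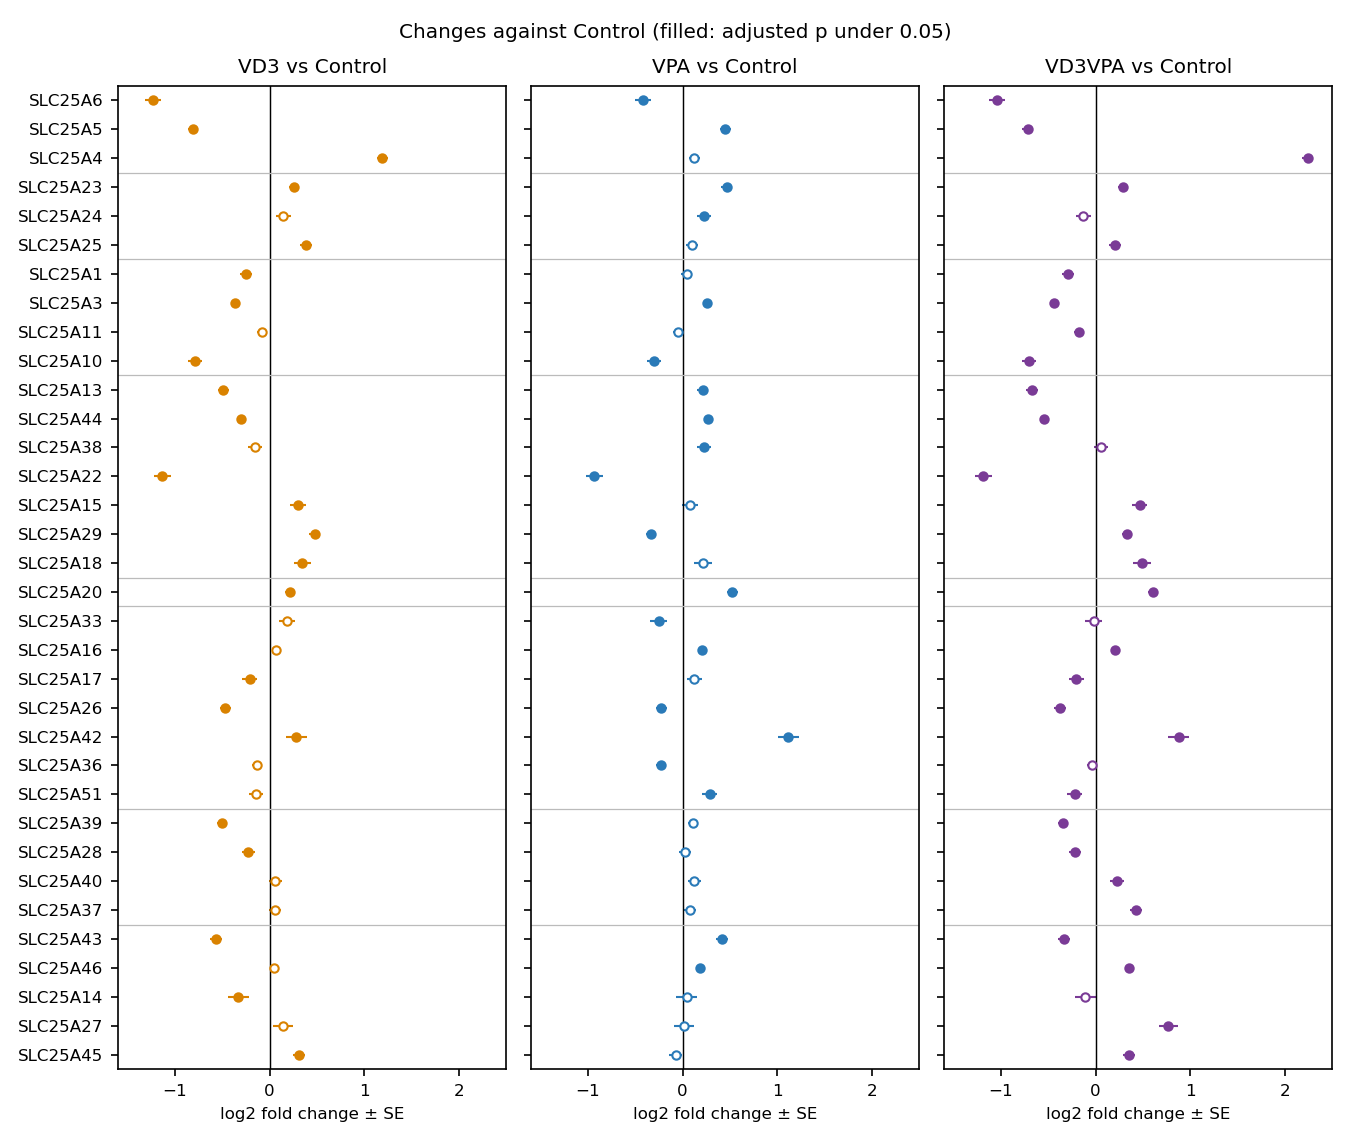
Log2 fold change with its SE of the 34 tested carriers in VD3, VPA and VD3VPA against Control, with filled points where the adjusted p was under 0.05 and lines between groups of related carriers. SLC25A4 rose by 1.19 with VD3 and 2.24 with both compounds, while SLC25A6 and SLC25A5 fell in both.

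The ADP/ATP carriers send the ATP made in the matrix out to the cytosol in exchange for ADP. SLC25A4 is known as the isoform of heart and skeletal muscle, SLC25A5 as that of dividing cells and SLC25A6 as one found in most tissues. SLC25A31 is known from the testis. The Control libraries had 14.6, 13.5 and 13.9 FPKM of SLC25A4, the VD3 libraries 34.5, 31.0 and 34.4, the VPA libraries 15.0, 16.4 and 14.7, and the VD3VPA libraries 73.2, 68.4 and 68.5. All VD3 libraries lay above all Control and VPA libraries, and all VD3VPA libraries above all VD3 libraries. The mean was 2.38-fold higher with VD3 (log2 1.19 ± 0.06 SE, adjusted p = 1.59e-08) and 5.00-fold higher with both compounds (2.24 ± 0.06, adjusted p = 6.23e-11). VPA alone gave 0.12 ± 0.06, with an adjusted p of 0.0885, although its 3 libraries lay above those of Control. Added to VD3, VPA raised SLC25A4 by 1.05 ± 0.06 (adjusted p = 9.58e-07), and added to VPA, VD3 raised it by 2.12 ± 0.06 (adjusted p = 1.28e-10). The effect of VPA was 0.93 ± 0.08 larger on the log2 scale with VD3 than without (interaction, adjusted p = 9.23e-06).

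The 5 muscle markers examined summed to 1.30 to 2.21 FPKM in Control, 1.29 to 1.502 in VD3, 1.16 to 1.26 in VPA and 1.53 to 1.87 in VD3VPA, with MYH7, ACTC1 and DES under 0.1 FPKM in every group. Their sum in the VD3VPA libraries lay inside the range of the Control libraries. The mesenchymal sum was higher in the treated groups, mostly through SPARC; with both compounds 2 of the 5 tested mesenchymal markers rose and LUM fell. The part of these markers in the SLC25A4 values was not tested.

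SLC25A6 had 448, 351 and 416 FPKM in the Control libraries, 159, 164 and 192 in VD3, 311, 303 and 290 in VPA and 198, 194 and 193 in VD3VPA. Every treated library lay below every Control library, and the VPA libraries lay between those of Control and those with VD3. Its log2 change was −1.23 ± 0.09 SE with VD3 (adjusted p = 3.52e-07), −0.42 ± 0.09 with VPA (adjusted p = 0.00201) and −1.04 ± 0.09 with both (adjusted p = 1.06e-06). SLC25A5 had 267, 233 and 242 FPKM in Control, 136, 147 and 138 in VD3, 333, 350 and 332 in VPA and 151, 150 and 147 in VD3VPA. Here the VPA libraries were the highest of all and those with VD3 the lowest, with no overlap with Control in either direction. SLC25A5 fell by 0.81 with VD3 (SE 0.05, adjusted p = 2.23e-07), rose by 0.45 with VPA (SE 0.05, adjusted p = 3.99e-05) and was 0.72 lower with both compounds (log2 change −0.72, adjusted p = 4.33e-07). VPA added to VD3 gave 0.09 for SLC25A5 (adjusted p = 0.225) and 0.19 for SLC25A6 (adjusted p = 0.121), neither past the threshold. The test of the difference in VPA effect gave −0.36 ± 0.08 for SLC25A5 (adjusted p = 0.00305) and 0.61 ± 0.12 for SLC25A6 (adjusted p = 0.0024). SLC25A31 had 2 fragments in Control and none elsewhere. An antisense RNA, SLC25A5-AS1, overlaps 15.1% of the exon bases of SLC25A5 and had at most 0.568 FPKM in any library.

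The mix of the ADP/ATP carriers differed between groups. SLC25A4 made up 2.11 ± 0.129% of their summed FPKM in Control, 9.67 ± 0.724% in VD3, 2.34 ± 0.0895% in VPA and 16.9 ± 0.387% in VD3VPA. No groups overlapped in this share, and each of the 5 pairs compared gave a p of 0.1 in a two-sided exact permutation test, the smallest that 3 against 3 libraries allow. SLC25A5 was 0.613 ± 0.0432 times as high as SLC25A6 in Control, 0.824 ± 0.0927 times in VD3, 1.12 ± 0.0483 times in VPA and 0.766 ± 0.00458 times in VD3VPA. VPA alone was the one group in which SLC25A5 exceeded SLC25A6 in FPKM, in all of its libraries. In fragments SLC25A6 remained higher there, with 66234 against 51454, as FPKM divides by 2164 and 1500 bases. The size of such shares and ratios thus depends on the gene lengths used.

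**Figure D3:**
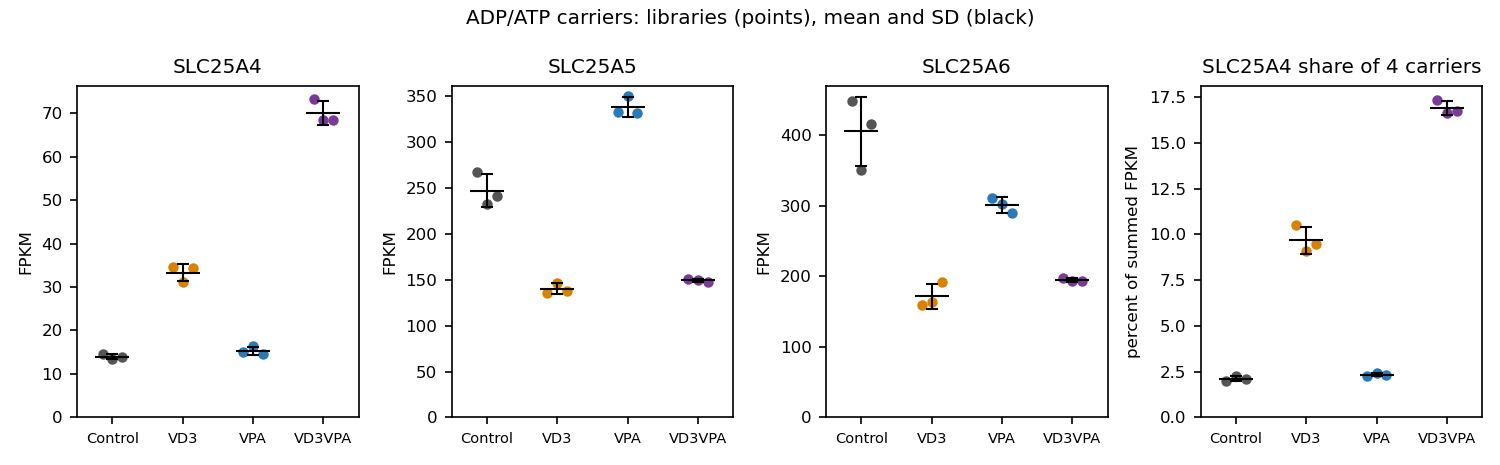
FPKM of SLC25A4, SLC25A5 and SLC25A6, and SLC25A4 as a percent of the summed FPKM of the 4 ADP/ATP carriers, in each library (points) with the mean and SD of each group (black). SLC25A4 rises from 14.01 FPKM in Control to 70.1 in VD3VPA as SLC25A6 falls from 405 to 195, and the SLC25A4 share goes from 2.11% to 16.9%.

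Calcium-regulated carriers exchange ATP-Mg for phosphate and so set the size of the adenine nucleotide pool in the matrix. SLC25A23 had 9.20, 9.48 and 8.95 FPKM in Control, 11.3, 11.6 and 10.8 in VD3, 12.8, 12.5 and 14.04 in VPA and 11.0, 12.2 and 11.2 in VD3VPA. Each treated group lay above Control, by 0.26 ± 0.05 with VD3 (adjusted p = 0.00128), 0.46 ± 0.05 with VPA (adjusted p = 2.79e-05) and 0.29 ± 0.05 with both (adjusted p = 0.00058). The 2 rises did not add up: the VPA effect on SLC25A23 was 0.44 lower with VD3 than without (interaction −0.44 ± 0.08, adjusted p = 0.00083). SLC25A25 rose with VD3 from 5.93 ± 0.213 to 8.04 ± 0.488 FPKM (0.38 ± 0.06, adjusted p = 0.000247). It had 6.42 ± 0.487 FPKM with VPA and 7.01 ± 0.518 with both. Genes on the opposite strand, SLC25A25-AS1 among 3, overlap 16.2% of its exon bases, and SLC25A25-AS1 had 1.03 to 1.16 FPKM in Control and 0.555 to 0.712 in VD3. SLC25A24 had 8.38 ± 1.22 FPKM in Control, 9.33 ± 0.594 in VD3, 9.91 ± 0.152 in VPA and 7.52 ± 0.0904 in VD3VPA, and its VPA effect differed with VD3 by −0.50 ± 0.11 (adjusted p = 0.00341). SLC25A41, the neighbour of SLC25A23 on chromosome 19 across a gap of 2299 bases, had 38 to 67 fragments per group and was not tested.

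Among the 4 tested carriers of phosphate and carboxylates 3 fell with VD3 and none rose, where 31.2% of all genes fell. SLC25A3, which brings in the phosphate for ATP synthesis, had 76.4, 70.1 and 73.1 FPKM in Control, 56.4, 58.1 and 55.5 in VD3, 87.5, 90.7 and 84.8 in VPA and 54.6, 52.6 and 53.6 in VD3VPA. No group overlapped with another for SLC25A3, and VPA was the highest. It fell by 0.36 with VD3 (SE 0.04, adjusted p = 1.96e-05), rose by 0.26 with VPA (adjusted p = 0.00042) and was lower with both (−0.44 ± 0.04, adjusted p = 3.36e-06). SLC25A1, which exports citrate for fatty acid and sterol synthesis, went from 193 ± 11.9 to 162 ± 8.03 FPKM with VD3 (−0.25 ± 0.06, adjusted p = 0.00416) and to 158 ± 11.4 with both (−0.29 ± 0.06, adjusted p = 0.00151). With VPA alone SLC25A1 had 199 ± 4.97 FPKM, overlapping with Control (adjusted p = 0.598). The dicarboxylate carrier SLC25A10, which exchanges malate and succinate for phosphate, went from 7.17, 5.87 and 5.62 FPKM in Control to 3.23, 3.18 and 3.102 in VD3, 4.64, 5.22 and 4.67 in VPA and 3.70, 3.33 and 3.23 in VD3VPA. All treated libraries lay below Control (VD3 −0.79 ± 0.08, adjusted p = 3.47e-06; VPA −0.30 ± 0.08, adjusted p = 0.00556). A readthrough gene on the same strand shares 46.6% of the exon bases of SLC25A10, so its reads could be split. The oxoglutarate/malate carrier SLC25A11 had group means between 18.2 and 20.7 FPKM, and its call with both compounds (−0.18, adjusted p = 0.0128) was lost without VD3VPA replicate 3 (adjusted p = 0.0521). SLC25A21, the oxoadipate carrier, had 34 to 74 fragments per group and was not tested.

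Of the carriers of amino acids, 7 of 9 were tested. SLC25A22, which imports glutamate, had 7.68, 5.63 and 6.31 FPKM in Control, 2.17, 2.42 and 2.65 in VD3, 3.08, 2.94 and 2.75 in VPA and 2.09, 2.39 and 2.39 in VD3VPA. All treated libraries were far below all Control libraries. The log2 changes were −1.14 ± 0.09 with VD3 (adjusted p = 7.67e-07), −0.93 ± 0.09 with VPA (adjusted p = 7.23e-06) and −1.19 ± 0.09 with both (adjusted p = 4.1e-07). VPA added to VD3 gave −0.05 ± 0.09 (adjusted p = 0.682), and the VPA effect differed by 0.88 ± 0.13 between cultures with and without VD3 (adjusted p = 0.000255). The second glutamate carrier, SLC25A18, was near 1 FPKM and went the other way, from 0.497 ± 0.0594 FPKM in Control to 0.912 ± 0.233 in VD3 (0.35 ± 0.09, adjusted p = 0.00691) and 1.11 ± 0.188 in VD3VPA (0.49 ± 0.09, adjusted p = 0.000667). SLC25A18 passed the filter through VD3 and VD3VPA libraries only, so its being higher there is partly a condition of being tested. The ratio of SLC25A22 to SLC25A18 was 10.03 to 17.3 in the Control libraries and at most 4.10 in any treated library. PANO1 overlaps 10.9% of the exon bases of SLC25A22.

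The aspartate/glutamate carriers drive the malate-aspartate shuttle, which passes reducing equivalents from the cytosol to the matrix. SLC25A13 (citrin, the form known from liver) had 19.7, 19.4 and 20.1 FPKM in Control, 12.97, 14 and 14.4 in VD3, 24.3, 21.9 and 22.9 in VPA and 12.3, 11.0 and 12.9 in VD3VPA. VD3 lowered it whether VPA was absent (−0.49 ± 0.06, adjusted p = 2.57e-05) or present (−0.88 ± 0.06, adjusted p = 1.71e-07), and the libraries of the groups compared did not overlap. The rise with VPA of 0.21 (adjusted p = 0.0111) was lost under both other scalings, with adjusted p of 0.083 and 0.212. Its relative SLC25A12, the form of muscle and brain, was at most 0.326 FPKM in any library and was not tested.

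SLC25A15, which exchanges ornithine for citrulline, and SLC25A29, a carrier of basic amino acids, both rose with VD3. SLC25A29 had 3.38, 4.09 and 3.70 FPKM in Control, 5.78, 5.38 and 5.52 in VD3, 2.63, 2.73 and 2.87 in VPA and 5.01, 4.77 and 5.06 in VD3VPA. VD3 lay above and VPA below Control without overlap, and VD3VPA lay between Control and VD3. The changes were 0.48 ± 0.06 with VD3 (adjusted p = 1.67e-05), −0.33 ± 0.06 with VPA (adjusted p = 0.000402) and 0.34 ± 0.06 with both (adjusted p = 0.000232). SLC25A15 went from 4.89 ± 0.526 FPKM in Control to 6.24 ± 0.279 in VD3 (0.30 ± 0.08, adjusted p = 0.00708) and 7.15 ± 0.711 in VD3VPA (0.47 ± 0.08, adjusted p = 0.000336). The intronless relative SLC25A2 had 1 or 2 fragments per group. SLC25A44, a carrier of branched-chain amino acids, had 14.9, 15.6 and 14.5 FPKM in Control, 12.7, 11.5 and 11.8 in VD3, 18.7, 18.8 and 17.5 in VPA and 9.86, 9.93 and 10.2 in VD3VPA. No groups overlapped, and the highest and the lowest were the groups with VPA alone and with both. VPA raised SLC25A44 without VD3 (0.27 ± 0.05, adjusted p = 0.000528) and lowered it with VD3 (−0.24 ± 0.05, adjusted p = 0.00237), a difference of −0.51 ± 0.07 (adjusted p = 0.000129). The glycine carrier SLC25A38, which feeds haem synthesis, had group means between 11.8 and 15.6 FPKM, and its 2 calls were lost in 4 and 10 of the 12 fits that left out a library.

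SLC25A20 carries acylcarnitines into the matrix for fatty acid oxidation and returns carnitine. It had 39.5, 36.8 and 36.2 FPKM in Control, 44.9, 41.0 and 45.6 in VD3, 55.7, 56.1 and 51.7 in VPA and 60.9, 56.4 and 56.0 in VD3VPA. VD3 lay above Control, and both groups with VPA lay above VD3. The rise was 0.22 ± 0.06 with VD3 (adjusted p = 0.00549), 0.53 ± 0.06 with VPA (adjusted p = 1.55e-05) and 0.61 ± 0.06 with both (adjusted p = 2.18e-06), and the 2 effects did not differ past the threshold from a sum (interaction −0.13 ± 0.08, adjusted p = 0.192).

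Among the carriers of cofactors and nucleotides SLC25A42 moved most. It brings coenzyme A into the matrix and had 2.83, 3.20 and 2.17 FPKM in Control, 3.82, 3.33 and 3.37 in VD3, 8.10, 7.15 and 6.03 in VPA and 6.31, 5.75 and 5.399 in VD3VPA. Both groups with VPA lay far above the others. It rose by 1.12 ± 0.11 with VPA (adjusted p = 8.73e-06), by 0.88 ± 0.11 with both against Control (adjusted p = 2.69e-05) and by 0.60 ± 0.11 when VPA was added to VD3 (adjusted p = 0.00172). The call with VD3 alone (0.28, adjusted p = 0.0437) was lost in 8 of the 12 fits that left out a library, with adjusted p of 0.0503 to 0.18. SLC25A16, which is linked to coenzyme A as well, had group means between 8.84 and 10.4 FPKM and its VPA call (0.21, adjusted p = 0.00287) was lost under both other scalings. SLC25A26, which imports the methyl donor S-adenosylmethionine, went from 3.36 ± 0.304 FPKM to 2.15 ± 0.0485 with VD3 (−0.47 ± 0.06, adjusted p = 3.45e-05), 2.73 ± 0.173 with VPA (−0.22 ± 0.06, adjusted p = 0.00797) and 2.36 ± 0.154 with both (−0.38 ± 0.06, adjusted p = 0.000167).

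The NAD carrier SLC25A51 had 2.23 ± 0.294 FPKM in Control, 1.92 ± 0.166 in VD3, 2.93 ± 0.186 in VPA (0.29 ± 0.08, adjusted p = 0.00848) and 1.77 ± 0.176 in VD3VPA. It shares 17.6% of its 50-base stretches with other genes, chiefly its near copy SLC25A52, which had at most 3 fragments in a group. Of the pyrimidine nucleotide carriers, SLC25A36 was lower with VPA (1.97 ± 0.188 against 2.46 ± 0.0592 FPKM, −0.22 ± 0.05, adjusted p = 0.0045) and SLC25A33 had group means between 7.52 and 10.5 FPKM. The VPA call of SLC25A33 was lost without Control replicate 1, Control replicate 2 or VPA replicate 3 (adjusted p of 0.121, 0.0569 and 0.113). SLC25A17, the peroxisomal carrier, had 4.20 ± 0.187 FPKM in Control, 3.502 ± 0.184 in VD3, 4.67 ± 0.262 in VPA and 3.54 ± 0.598 in VD3VPA, and its VD3 call (adjusted p = 0.0397) was lost in 8 of the 12 fits. SLC25A32, the folate/FAD carrier, had 9 to 30 fragments per group, and other genes share 80.8% of its exon bases, so its level is uncertain.

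The carriers of glutathione and iron each had an abundant form and a weakly expressed form. SLC25A39, which imports glutathione, had 54.7, 48.0 and 50.5 FPKM in Control, 37.0, 34.4 and 35.8 in VD3, 55.0, 56.6 and 54.2 in VPA and 41.5, 40.0 and 38.5 in VD3VPA. The groups with VD3 lay below the others (VD3 −0.50 ± 0.05, adjusted p = 6.34e-06; VD3VPA −0.34 ± 0.05, adjusted p = 0.000119). Its relative SLC25A40 had 1.05 ± 0.11 FPKM in Control and 1.40 ± 0.0764 in VD3VPA (0.23 ± 0.07, adjusted p = 0.0166), a call lost without Control replicate 3 (adjusted p = 0.0574) or VD3VPA replicate 2 (adjusted p = 0.0534). SLC25A28 and SLC25A37, the mitoferrins that bring iron to the matrix for haem and iron-sulphur clusters, differed in level too. SLC25A28 went from 12.6 ± 1.249 FPKM to 10.6 ± 0.805 with VD3 (−0.23 ± 0.07, adjusted p = 0.0118, lost without VD3 replicate 2 at 0.053). SLC25A37, known as the form of red cell precursors, had 0.754, 0.746 and 0.664 FPKM in Control, 0.733, 0.808 and 0.841 in VD3, 0.751, 0.749 and 0.962 in VPA and 1.23, 1.33 and 1.36 in VD3VPA. The VD3VPA libraries lay above all others, which overlapped, and the rise over Control was 0.42 ± 0.06 (adjusted p = 0.000121). SLC25A37 passed the filter through VD3VPA libraries only, so its being higher there is partly a condition of being tested. The 6 erythroid markers summed to at most 0.0837 FPKM in any library.

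Of the 11 remaining carriers, 5 were tested. SLC25A27, a relative of the uncoupling proteins known from the brain, had 0.957, 1.18 and 0.656 FPKM in Control, 1.05, 0.916 and 1.42 in VD3, 0.819, 0.953 and 1.03 in VPA and 2.30, 2.23 and 2.30 in VD3VPA. The other 3 groups overlapped, and all VD3VPA libraries lay above them. It was called with both compounds (0.77 ± 0.11 against Control, adjusted p = 5.28e-05) and not with VD3 (0.14, adjusted p = 0.258) or VPA (0.01, adjusted p = 0.94), and the interaction was 0.62 ± 0.15 (adjusted p = 0.00593). These values rest on 312 to 826 fragments per group. SLC25A46, an outer membrane protein of mitochondrial dynamics, had 5.34 ± 0.0868 FPKM in Control, 5.55 ± 0.145 in VD3, 6.24 ± 0.441 in VPA and 7.12 ± 0.18 in VD3VPA (0.36 ± 0.05, adjusted p = 3.61e-05). SLC25A45 rose with VD3 from 0.748 ± 0.0937 to 1.17 ± 0.0865 FPKM (0.31 ± 0.07, adjusted p = 0.00157), a gene that passed the filter through VD3 and VD3VPA libraries only. SLC25A14, another relative of the uncoupling proteins, had group means between 1.65 and 2.42 FPKM, and its call with VD3 (−0.33 ± 0.11, adjusted p = 0.022) was lost without Control replicate 1, Control replicate 2 or VD3 replicate 2 (adjusted p of 0.063, 0.0657 and 0.0939).

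SLC25A43 was called in the same directions against Control as SLC25A5, from which it is separated by 13921 bases of chromosome X. So were SLC25A3, SLC25A13 and SLC25A44, which lie on other chromosomes, so this pattern was not particular to the 2 neighbours. SLC25A43 had 5.72, 6.78 and 6.96 FPKM in Control, 3.84, 4.29 and 4.04 in VD3, 8.86, 9.23 and 8.77 in VPA and 4.99, 4.65 and 5.10 in VD3VPA. As for SLC25A5, VPA was highest and the groups with VD3 lowest, without overlap with Control. SLC25A43 fell by 0.56 with VD3 (SE 0.06, adjusted p = 1.37e-05), rose by 0.41 with VPA (SE 0.06, adjusted p = 0.00023) and was lower with both (−0.34 ± 0.06, adjusted p = 0.000647). The ratio of SLC25A5 to SLC25A43 was 34.3 to 46.8 in the Control libraries, 34.2 to 35.35 in VD3 and 37.5 to 37.9 in VPA. In VD3VPA it was 28.9 to 32.2, below every library of the other groups. The untested members of this group, SLC25A30, SLC25A34, SLC25A35, SLC25A47, SLC25A48 and SLC25A53, were at most 0.637 FPKM in any library.

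**Figure D4:**
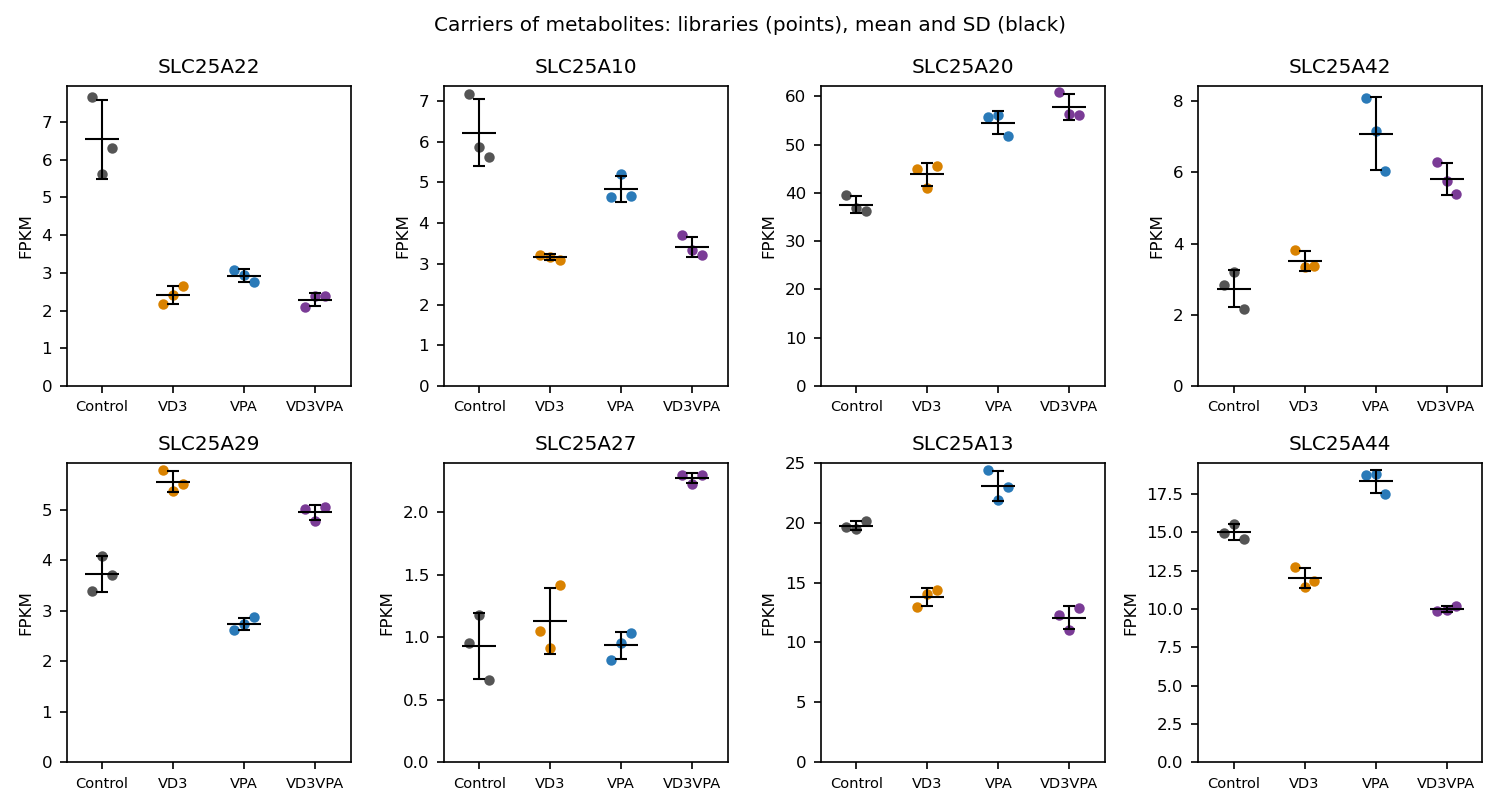
FPKM in each library (points) with group mean and SD (black) of SLC25A22, SLC25A10, SLC25A20, SLC25A42, SLC25A29, SLC25A27, SLC25A13 and SLC25A44, each axis from 0. SLC25A22 is low in all treated groups, SLC25A42 and SLC25A20 are high in both groups with VPA, and SLC25A27 stands above the rest only with both compounds, at 2.27 ± 0.0404 FPKM.

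When VPA was added to VD3, 10 carriers rose and 4 fell, and 20 were not past. Across all genes 17.5% were higher and 17.2% lower, against 29.4% and 11.8% of the carriers, with medians of 0.09 and 0.01. SLC25A4, SLC25A27 and SLC25A42 rose most, and SLC25A24 (−0.28 ± 0.08, adjusted p = 0.0172), SLC25A44 and SLC25A13 (−0.18 ± 0.06, adjusted p = 0.0354) fell most. Only 7 of these 14 calls held in every alternative fit that tested them. Leaving out VD3VPA replicate 1 left 6 rises and 2 falls, leaving out VD3 replicate 2 left 1 fall, and the SLC25A24 call was lost without VD3 replicate 2 (adjusted p = 0.0691). The SLC25A13 call was lost without VD3 replicate 2 or 3 or VD3VPA replicate 1 or 2 (adjusted p of 0.0967, 0.112, 0.0634 and 0.142).

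When VD3 was added to VPA, 10 carriers rose and 16 fell, and 8 were not past. Across all genes 28.6% were higher and 34.7% lower, against 29.4% and 47.1% of the carriers, with medians of −0.16 and −0.03. The falls were led by SLC25A5 (−1.17 ± 0.05, adjusted p = 8.47e-09), SLC25A13 and SLC25A44 (−0.81 ± 0.05, adjusted p = 4.72e-08), and the rises by SLC25A4, SLC25A27 (0.76 ± 0.11, adjusted p = 6.24e-05) and SLC25A29 (0.67 ± 0.06, adjusted p = 8.92e-07). Of these 26 calls, 21 held in every alternative fit that tested them. Only 5 rises were among the 24 carriers that passed a filter of 5 FPKM.

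The effect of each compound was then compared without and with the other. VD3 against Control and VD3VPA against VPA share no library, and across the 34 carriers their changes had a Pearson r of 0.776 and a Spearman rho of 0.779, as a description over genes that are not independent. Over all 12578 genes tested the values were 0.720 and 0.605. A total of 19 carriers (55.9%) were called in both, 18 of them in the same direction and SLC25A23 in opposite directions, where 44.9% of all genes were called in both and 86.9% of these in the same direction. Among the 18, SLC25A18 and SLC25A45 passed the filter only through VD3 or VD3VPA libraries. Their rises in both comparisons are thus partly a condition of being tested, and they enter the correlations too, as does SLC25A37. The fall of SLC25A23 when VD3 was added to VPA was lost without VPA replicate 3 or VD3VPA replicate 1 (adjusted p of 0.0563 and 0.0521). For VPA against Control and VD3VPA against VD3 the values were 0.275 and 0.15, against 0.201 and 0.137 over all genes. Here 9 carriers (26.5%) were called in both, against 20.7% of all genes: SLC25A16, SLC25A20, SLC25A38, SLC25A42, SLC25A43 and SLC25A46 rose in both, and SLC25A13, SLC25A24 and SLC25A44 rose with VPA alone and fell when VPA was added to VD3. Of these 9 carriers, SLC25A20, SLC25A42 and SLC25A44 kept both calls in every alternative fit that tested them, and the other 6 lost at least 1 of them in some fit. The difference in effect passed the threshold in 17 carriers, positive in 8 and negative in 9. Across all genes 19% were positive and 25.3% negative, against 23.5% and 26.5% of the carriers. With each library scaled to its own fragment total the split was 11 and 6, the median of this term over all genes went from −0.01 to 0.11, and the positive share among all called genes from 43.0% to 67.1%. With equal sums of FPKM it was 8 and 8, and the positive share 55.8%.

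**Figure D5:**
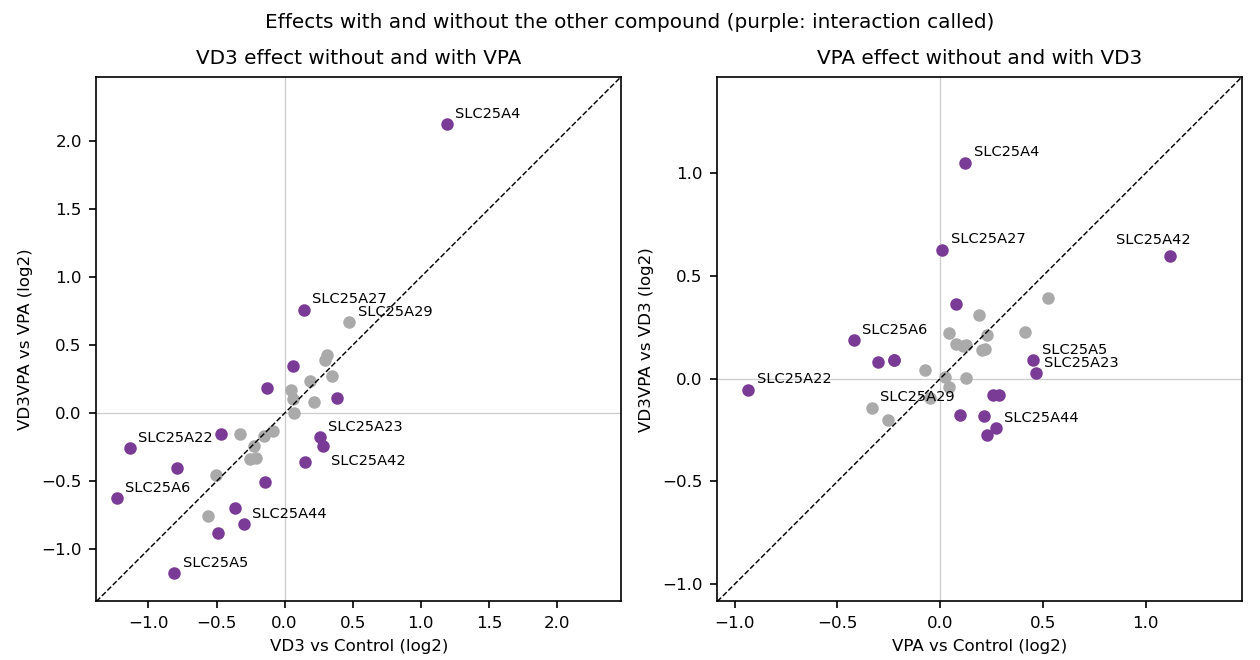
Log2 change of the 34 tested carriers with VD3 (left) and with VPA (right), without the other compound on the x axis and with it on the y axis, with the dashed line where both are equal and purple points where the difference between them was called. A carrier lies equally far from the line in both panels, since that distance is the interaction term: SLC25A4 is 0.93 above it and SLC25A22 0.88 above it, with VPA changes of 0.12 and 1.05 and of −0.93 and −0.05.

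Genes that work with the carriers were examined beside them, with lists chosen with results of these data known. Of the 12 tested genes of the route that imports and inserts carriers into the inner membrane, the TIM22 route, 11 were lower and 1 was higher with VD3, with a median of −0.62, where 31.2% of all genes were lower and 31.3% higher, and 10 were lower and 1 higher with both compounds. Of all genes, 33.1% were lower and 31.1% higher with both compounds. With VPA alone 4 genes of the route were lower and 1 was higher, where 23.1% of all genes were lower and 29.6% higher. TIMM9, a small chaperone of the intermembrane space, went from 9.27 ± 0.839 to 4.15 ± 0.276 FPKM with VD3 (−0.99 ± 0.08, adjusted p = 1.11e-06), and TOMM40, the pore of the outer membrane, from 30.8 ± 5.3 to 15.2 ± 0.111 FPKM (−0.96 ± 0.10, adjusted p = 5.94e-06). The exception was TIMM29, which rose by 0.16 ± 0.06 (adjusted p = 0.0404). The outer membrane channels VDAC1, VDAC2 and VDAC3 were all lower with both compounds, where 33.1% of all genes were. MTCH2, the insertase of the outer membrane and a relative of the carriers, fell with VD3 (−0.54 ± 0.06, adjusted p = 7.32e-06) and rose with VPA (0.22 ± 0.06, adjusted p = 0.0072), as SLC25A5 and SLC25A3 did.

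All 4 tested partners of SLC25A20 in the carnitine shuttle were higher with VPA, and all 4 were higher with both compounds, where 29.6% and 31.1% of all genes were. CPT1A, which makes the acylcarnitines that SLC25A20 carries, had 0.83 ± 0.0243 FPKM in Control and 1.91 ± 0.22 in VPA (0.67 ± 0.08, adjusted p = 2.7e-05). No Control library reached the filter of 1 FPKM for CPT1A, which passed through treated libraries only. Its being higher there, and its place among the 4, is thus partly a condition of being tested. SLC22A5, the carnitine transporter of the cell membrane, rose by 0.59 ± 0.05 (adjusted p = 3.37e-06). With VD3 alone none of the 4 was higher and 1 was lower. Around the citrate carrier, 2 of 8 tested genes were higher and 5 lower with VD3, beside the shares of all genes given above: ACLY, which splits the exported citrate, rose from 61.9 ± 2.26 to 124 ± 7.15 FPKM (0.99 ± 0.05, adjusted p = 2.13e-08) and IDH1 by 1.254 ± 0.10 (adjusted p = 8.46e-07), opposite to SLC25A1.

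The counts of the other partner lists stand beside 31.3% of all genes higher and 31.2% lower with VD3, and several are near those shares. Among 8 tested genes of ornithine and citrulline metabolism, 4 were higher and 3 lower. NAGS rose by 0.97 ± 0.08 (adjusted p = 1.5e-06) and CPS1 fell (−1.248 ± 0.10, adjusted p = 1.11e-06), both being matrix enzymes of the urea cycle next to SLC25A15. Of 9 tested genes of iron and haem, 2 were higher and 2 lower with VD3. With VPA 6 of them were higher, where 29.6% of all genes were. ALAS1, the first enzyme of haem synthesis, which uses the glycine that SLC25A38 brings in, rose by 0.96 ± 0.06 with VD3 (adjusted p = 1.03e-07). Of the 4 enzymes of the malate-aspartate shuttle, 2 were lower with VD3 and MDH1 was higher with VPA (0.89 ± 0.07, adjusted p = 2.71e-06), while SLC25A13 fell with VD3. Of 7 other carriers of the inner membrane, 3 were higher and 2 lower with VD3, and MPC1, a subunit of the pyruvate carrier, rose from 11.8 ± 0.394 to 34.01 ± 0.896 FPKM (1.45 ± 0.06, adjusted p = 4.51e-09). Of 6 tested regulators of mitochondrial biogenesis, 4 were lower and 1 higher with VD3, and PPARGC1A was below 0.1 FPKM in every group.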

How the data were processed

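Poly-A RNA of 12 libraries, 3 in each of 4 groups, was sequenced, and the authors deposited FPKM values per gene and library in a single table that also holds gene lengths. The submitters' processing notes list GRCh38.p13 as the build, DESeq2 1.20.0, featureCounts 1.5.0-p3 and HISAT2 2.0.5; what each did, and the strand setting, is not given in the sources used here. Columns were assigned to samples by name, and 0 were not mapped. The deposited FPKM values times gene length gave whole fragments within 0.01, from which depth was taken; overlapping and antisense genes may share reads.

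The 12578 genes that reached 1 FPKM in 3 or more libraries were tested on log2(FPKM + 1) with limma 3.58.1 in R 4.3.3, in 1 fit over the 4 groups, with moderated variances (8 residual and 3.28 prior degrees of freedom). P-values were adjusted by the Benjamini-Hochberg method over all genes tested, with a threshold of 0.05. A share per library was compared with exact permutation tests (SciPy 1.17.1). Alternatives were a pseudocount of 0.1, no filter, a filter of 5 FPKM, libraries scaled to equal sums or to their own totals, limma's voom on the recovered fragments, pairs of groups alone, a replicate block and each library left out. The test was also run on simulated counts with few changed genes and a common dispersion for all genes. Those settings differ from these data, so no result here rests on that run. Promoters came from RefSeq. Tables and figures used Python 3.11.15, pandas 2.3.3, numpy 2.4.6, matplotlib 3.10.9, statmod 1.5.0 and the R package for reading tables, data.table, in version 1.17.8.

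The carriers, the partner and marker lists and the tests were chosen with earlier results of these data known. Carriers were named with values by 1 rule: the 5 strongest called rises and falls without overlap in each comparison with Control, the 3 strongest in the other comparisons of groups, the 5 interaction terms of smallest adjusted p, the 10 most abundant in Control, and sets of close relatives and carriers of known substrate whatever their values. SLC25A14 and SLC25A21 fall outside it and were named to account for more of the members. The values of 1 untested carrier are not reported here.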

Additional observations from a re-analysis of the deposited data

Results flagged for a closer look

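For 17 of the 34 tested carriers the effect of VPA differed between cultures with and without VD3 (interaction term of limma, Benjamini-Hochberg adjustment over all genes). Across all genes 19% of these terms were positive and 25.3% negative, against 23.5% and 26.5% of the carriers. The split of 8 positive and 9 negative became 11 and 6 with libraries scaled to their own fragment totals. The values below are the log2 change with VPA in the presence of VD3 minus that in its absence. The difference was positive for SLC25A4 (0.928, adjusted p = 9.23e-06), SLC25A22 (0.880, adjusted p = 0.000255), SLC25A6 (0.609, adjusted p = 0.0024) and SLC25A36 (0.317, adjusted p = 0.00593). It was also positive for SLC25A27 (0.617, adjusted p = 0.00593), SLC25A26 (0.314, adjusted p = 0.0105), SLC25A10 (0.385, adjusted p = 0.0124) and SLC25A37 (0.285, adjusted p = 0.0245). It was negative for SLC25A44 (−0.513, adjusted p = 0.000129), SLC25A23 (−0.437, adjusted p = 0.00083), SLC25A3 (−0.336, adjusted p = 0.0011), SLC25A5 (−0.362, adjusted p = 0.00305) and SLC25A13 (−0.394, adjusted p = 0.00316), and likewise for SLC25A24 (−0.502, adjusted p = 0.00341), SLC25A51 (−0.364, adjusted p = 0.018), SLC25A42 (−0.521, adjusted p = 0.0183) and SLC25A25 (−0.273, adjusted p = 0.027). The terms of SLC25A37, SLC25A25, SLC25A42 and SLC25A51 did not hold in every alternative fit that tested them. SLC25A37 passed the filter on low values through VD3VPA libraries only, so its term is partly a condition of being tested. No test for a single deviating library was made, since groups hold 3 libraries each.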

How the results depend on the processing

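Of the 129 called results of the carriers (a gene in a comparison or interaction), 97 held in every alternative that tested them (the filter of 5 FPKM tested 98 of the 129, and pairs of groups alone tested no interaction term), 27 were lost when some library was left out, 26 in some other alternative, and 0 reversed. The count of carriers higher with VPA went from 13 to 8 with equal FPKM sums and to 8 with own fragment totals. A filter of 5 FPKM, which tested 24 carriers, left 9 in place of 14 higher with both compounds against Control, 5 in place of 10 higher when VD3 was added to VPA, and 4 in place of 8 positive interaction terms. When VPA was added to VD3, the 4 falls became 1 without a filter (48 carriers tested), 2 with equal sums and 2 with own totals. Leaving out a library gave 6 to 10 rises and 1 to 5 falls there. The median change of the carriers moved to −0.17 with VD3 under own totals, to 0.05 and 0.01 with VPA under equal sums and own totals, to −0.15 with both compounds under the filter of 5 FPKM and to −0.09 for VD3 added to VPA under own totals; without a filter all 5 lay between −0.07 and 0.04. The cause was not tested, apart from the smaller or larger number of genes tested under another filter.

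Replicate numbers are shared between groups, but libraries with the same number deviated together little (r from −0.083 to 0.152 over 18 pairs, against −0.193 to 0.115 over 36 pairs with different numbers). The labels do not say what the numbers stand for, and correlations among so few libraries cannot show whether they mark a batch. With a replicate block 10 carriers were higher and 15 lower with VD3, 13 and 7 with VPA, 14 and 15 with both, 9 and 4 when VPA was added to VD3, and 10 and 17 when VD3 was added to VPA, with 8 positive and 9 negative interaction terms. Every group had 3 libraries of a single cell line, and the 14 carriers too low to test had at most 499 fragments in a group.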
